A study of Mus musculus with 17 samples.

Results

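Aqp4, Slc1a2, Slc1a3, Glul, Aldoc, Gja1, Gjb6, S100b and Aldh1l1 are genes by which astrocytes are commonly recognized, and they were followed here in laser-captured dentate gyrus of FOXO knockout and wild-type mice. They were chosen by name, as the genes of water, glutamate and gap junction transport and of the enzymes and calcium-binding protein that go with them. Every probe set annotated with 1 of these symbols alone was used, which gave 29 of the 45037 mouse probe sets on the array and 9 of the 18193 genes that can be named. A further probe set, shared by Slc1a2 and another gene, was left out.

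Astrocytes take up the glutamate released at synapses, turn it into glutamine, and pass ions and small molecules to each other through gap junctions. In the hippocampus their fine processes fill the layers between neurons, so that tissue cut out around neuronal cell bodies carries astrocyte RNA along with it. Aqp4 is the water channel of the endfeet on blood vessels, Slc1a2 (GLT-1) and Slc1a3 (GLAST) are the glutamate transporters, and Glul is glutamine synthetase. Gja1 and Gjb6 encode connexin 43 and connexin 30 of astrocyte gap junctions. Aldoc is the brain aldolase of glycolysis, Aldh1l1 an enzyme of folate metabolism, and S100b a calcium-binding protein that part of the oligodendrocytes also make.

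KO samples carry the genotype FOXO 1/3/4 KO, in which floxed Foxo1, Foxo3 and Foxo4 were deleted by hGFAP-cre, and WT samples are labelled WT with no allele named. The hGFAP promoter drives Cre in progenitors that neurons and glia share, so the deletion covers both, astrocytes included. According to the methods the mice were of mixed FVB and B6 background and the dentate gyrus was taken by laser capture, while the labels give only brain as tissue and neither age nor sex. The 15 samples without a further mark were 8 KO and 7 WT samples. Mark 433 (KO) and mark 437 (WT) each have a further sample with the mark CA13. No source says what that mark stands for, and neither sample was placed in a group. By a number in the sample labels, 11 of the 15 samples (6 KO and 5 WT) form a larger array series and 4 (2 KO and 2 WT) a smaller one. The sources do not state that each sample is a separate animal, so the p-values rest on a spread among samples that can be technical in part.

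Foxo1 followed the labels: its signal averaged 10298 ± 4379 (SD) over the 7 WT samples but 280 ± 187 (SD) over the 8 KO samples, without overlap. The brightest probe sets of the other deleted genes did not separate the groups: the log2 fold change, KO minus WT, was -0.46 for Foxo3 and 0.43 for Foxo4, both with overlap. Foxo3, lower in KO, had an unadjusted p of 0.0140 from limma (adjusted p 0.9999) and an exact permutation p of 0.0214. The Foxo4 probe set was dim, with a mean signal of 41.9 in WT and 64.8 in KO. The labels are thus checked by Foxo1 alone. The library labelled 433 among the KO samples stood apart. With all 17 arrays normalized together, its mean log2 level over 12 dentate granule neuron markers was 8.38 against 10.75 to 11.11 in the other 14 unmarked samples, and over 13 CA pyramidal neuron markers it was 10.11 against 8.07 to 8.78. Its CA13-marked partner had the granule profile (11.03 and 8.20). The KO-WT values of the members are therefore given with and without this library, and those of other genes where leaving it out ended a call or moved the value by over 1.5 times. The median signal of an array was 88.1 to 123, and the number of arrays limits the precision.

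Most of the members gave signal above the array median in the captured tissue. The brightest probe sets of Aqp4, Slc1a2, Slc1a3, Glul, Aldoc, Gja1, Gjb6 and S100b lay above the median of their array in all 15 unmarked samples. That of Aldh1l1, with a mean signal of 134, did so in 12. The share of all genes above the median in this way is not given here, and taking the brightest of several probe sets favours it. The mean signal over the 15 samples was 15231 for Glul, 12853 for Gja1 and 4090 for Aldoc, values of single probe sets that give no order of the transcripts. Of the 29 probe sets 13 were above the array median in every sample and 11 had a mean signal under 100. Unless stated otherwise, a level is log2(signal + 32) after quantile normalization, in the brightest probe set of the gene, which understates the differences of dim probe sets. In such bulk tissue, fewer astrocytes and less RNA per astrocyte cannot be told apart.

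The brightest probe sets of the members differed in how evenly they were present. That of Gja1 varied least, with a standard deviation of 0.22 over the 15 samples and 1.70-fold between the highest and the lowest signal. This does not hold for the gene as a whole. Other Gja1 probe sets, with mean signals of 2461 and 845, had standard deviations of 0.63 and 0.57 and ranges of 4.56-fold and 4.45-fold. Among the brightest probe sets, the order was as follows. The standard deviation was highest for Aqp4, at 0.55 with a 3.69-fold range of signal, while Slc1a3 had the widest range, 4.09-fold, at a standard deviation of 0.47. The standard deviation was 0.36 at the median of the 11490 genes with a mean signal of at least 100.

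The water channel Aqp4 had levels from 8.32 to 9.56 (median 9.06) in WT and from 8.39 to 10.10 (median 9.46) in KO. The groups overlapped, and 3 KO samples were above every WT sample. Its log2 fold change, KO minus WT, was 0.39 (standard error 0.25, with -0.14 to 0.92 as the 95% interval, unadjusted p = 0.144 from limma). Both dimmer Aqp4 probe sets had mean signals under 100 and log2 fold changes of -0.04 and 0.13.

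**Figure D1:**
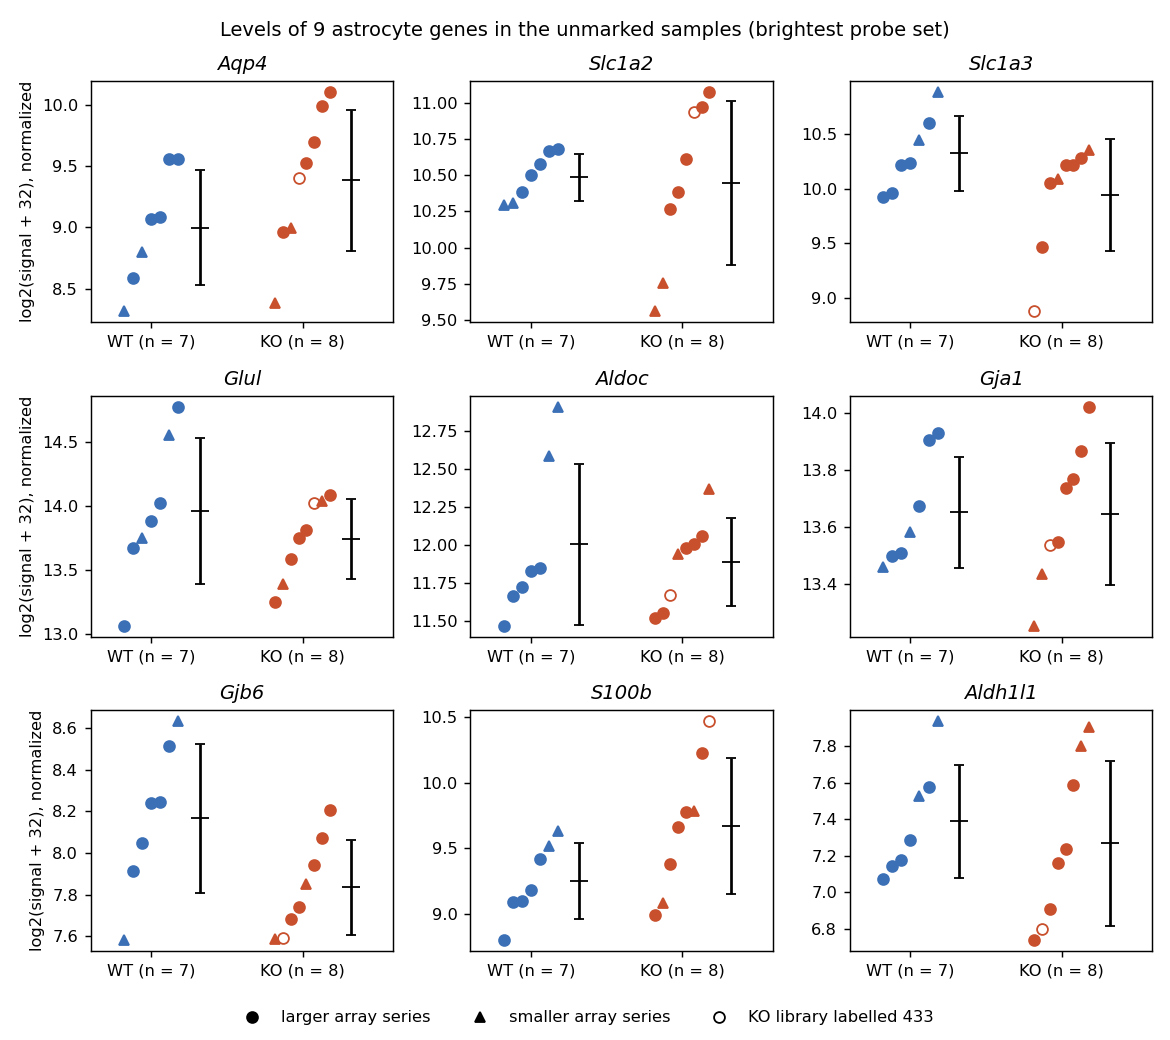
Normalized log2(signal + 32) of the brightest probe set of each of the 9 genes in the 7 WT (blue) and 8 KO (orange) unmarked samples. Circles are arrays of the larger series, triangles of the smaller series, and the open circle is the library labelled 433. Black bars give the mean ± SD. WT and KO overlapped for every gene, while triangles lay mostly low for Aqp4 and Slc1a2 and mostly high for Aldoc and Aldh1l1, with overlap.

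Slc1a2, the main glutamate transporter of the mature forebrain, lay between 10.29 and 10.68 (median 10.50) in WT and between 9.56 and 11.08 (median 10.50) in KO. The KO samples spread on both sides of the WT range. The log2 fold change was -0.04 (standard error 0.21, with -0.48 to 0.40 as the 95% interval). A dim Slc1a2 probe set averaged a signal of 112 ± 62.6 (SD) over the 7 WT samples and 48.1 ± 32.6 (SD) over the 8 KO samples, and its log2 fold change was -0.80 (unadjusted p = 0.0181 from limma, exact permutation p = 0.0368). Its signal was above the array median in only 5 samples, and over the 15 samples its level ran opposite to that of the brightest Slc1a2 probe set (Pearson r = -0.31). The other 3 Slc1a2 probe sets had log2 fold changes of -0.20 to 0.19.

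Slc1a3, the second astrocyte glutamate transporter, reached 9.92 to 10.89 (median 10.23) in WT and 8.88 to 10.35 (median 10.15) in KO. The library labelled 433 was the lowest, and the groups overlapped. The log2 fold change was -0.38 (standard error 0.21, with -0.83 to 0.07 as the 95% interval) and -0.23 without that library. A second bright Slc1a3 probe set, with a mean signal of 465, had a log2 fold change of -0.13 and did not follow the first over the samples (Pearson r = -0.22). Glul, which makes glutamine from the glutamate taken up, ranged from 13.07 to 14.77 (median 13.88) in WT and from 13.26 to 14.09 (median 13.78) in KO, so that the KO samples lay inside the WT range. Its log2 fold change was -0.22 (standard error 0.21).

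Of the gap junction genes, Gja1 lay at 13.46 to 13.93 (median 13.58) in WT and 13.25 to 14.02 (median 13.64) in KO. The groups overlapped over nearly their whole range. The log2 fold change of -0.01 had a standard error of 0.12, the smallest among the members' brightest probe sets, and its 95% interval ran from -0.26 to 0.25. Other bright Gja1 probe sets had log2 fold changes of -0.11 to 0.12, with larger standard errors of 0.16 to 0.30. A dim Gja1 probe set was at 0.22 (standard error 0.27). The Gja1 probe set with a mean signal of 745 ran against the brightest over the 15 samples (Pearson r = -0.39). Gjb6 lay between 7.58 and 8.63 (median 8.24) in WT and between 7.59 and 8.20 (median 7.80) in KO. The KO samples sat in the lower part of the WT range, with 4 of 7 WT samples above all of them. The log2 fold change of Gjb6 was -0.33 (standard error 0.17, unadjusted p = 0.0659 from limma, exact permutation p = 0.05), and it was -0.30 without the library labelled 433.

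S100b had levels of 8.80 to 9.63 (median 9.18) in WT and 8.99 to 10.47 (median 9.72) in KO. Of the 8 KO samples, 5 were above every WT sample, the library labelled 433 highest. The log2 fold change was 0.42 (standard error 0.21, with -0.02 to 0.87 as the 95% interval, unadjusted p = 0.0587 from limma) and 0.31 without that library. The dimmer S100b probe set gave 0.23.

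The enzymes Aldoc and Aldh1l1 had log2 fold changes of -0.12 each (standard errors 0.20 and 0.21). Aldoc lay between 11.47 and 12.91 (median 11.83) in WT and between 11.52 and 12.37 (median 11.96) in KO. Aldh1l1 lay between 7.07 and 7.94 (median 7.29) in WT and between 6.74 and 7.91 (median 7.20) in KO. The groups overlapped in both genes, and most samples of the smaller array series were among the highest. In Aldoc the KO sample 391 of the smaller series (11.94) was below the KO sample 386 of the larger (12.06). In Aldh1l1 the WT sample 392 of the smaller series (7.53) was below the KO sample 212 of the larger (7.59). The dimmer Aldoc probe set had a log2 fold change of 0.14 and the dimmer one of Aldh1l1 -0.33.

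FOXO factors bind DNA at the letters GTAAACA, and the windows around the transcription start sites of the members were read for them on both strands, 250 bases before to 50 after each start (RefSeq, build GRCm38.p6). Of the 9 windows of 8 members, Aqp4 having none in the table, 1 held the letters, against 3.65% of all 32851 windows. It is shown because it is the single match, at an Aldoc start on the forward strand of chromosome 11. The capitals mark the match, on the reverse strand, and the other Aldoc start is given for comparison.
Aldoc, chr11:78323948-78324247: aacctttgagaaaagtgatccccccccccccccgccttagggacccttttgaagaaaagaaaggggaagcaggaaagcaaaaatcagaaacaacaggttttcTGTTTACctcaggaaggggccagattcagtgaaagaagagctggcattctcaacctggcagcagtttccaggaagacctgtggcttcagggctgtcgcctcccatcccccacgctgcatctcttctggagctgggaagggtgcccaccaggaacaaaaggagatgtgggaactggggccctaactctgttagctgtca
Aldoc, chr11:78322823-78323122: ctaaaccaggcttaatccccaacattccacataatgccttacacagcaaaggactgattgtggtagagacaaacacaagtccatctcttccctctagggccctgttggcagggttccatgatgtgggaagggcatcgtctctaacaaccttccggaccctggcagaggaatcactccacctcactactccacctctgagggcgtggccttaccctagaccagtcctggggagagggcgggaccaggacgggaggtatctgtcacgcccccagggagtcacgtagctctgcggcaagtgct
A match is a description of letters and not a site. Aldoc itself had a log2 fold change of -0.12 between KO and WT, within its standard error of 0.20.

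Across all 45037 probe sets, limma with Benjamini-Hochberg adjustment called 6, a share of 0.0133%, and 0 of the 29 member probe sets, each with an adjusted p of 0.9999. At an unadjusted p under 0.05 it called 1 member probe set, the dim one of Slc1a2, where the share over all probe sets was 3.22%. SAM called 0 member probe sets, where it called 7 of all (0.0155%). The methods' t-test called 0 after adjustment, where it called 4 of all (0.00888%), and 2 before it, the dim Slc1a2 probe set and Gjb6, where it called 3.35% of all. Of the 9 brightest probe sets 2 were higher and 7 lower in KO, with a median log2 fold change of -0.12 against 0.01 over the brightest probe sets of all genes. For these 9 the exact permutation p, over all 6435 ways to assign the genotypes, ran from 0.05 to 0.962. Their standard errors had a median of 0.21, and their 95% intervals stayed within 0.92 of 0 on the log2 scale. Without the library labelled 433 the log2 fold change was 0.38 for Aqp4, -0.11 for Slc1a2, -0.25 for Glul, -0.08 for Aldoc, 0.01 for Gja1 and -0.05 for Aldh1l1. The 95% intervals give the differences compatible with these samples and are not a limit of detection. With adjustment over 45037 probe sets, larger differences can be missed as well.

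**Figure D2:**
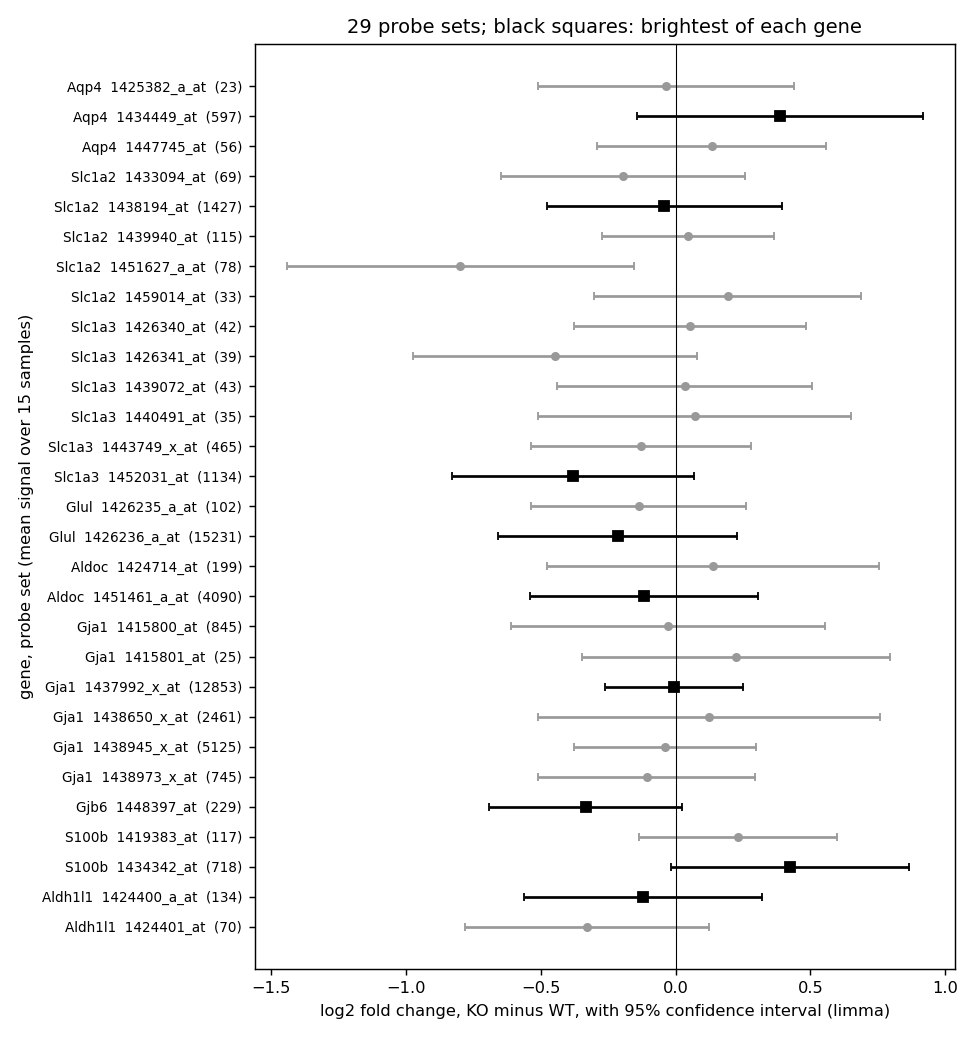
Log2 fold change, KO minus WT, of the 29 member probe sets with 95% confidence intervals from limma (8 KO and 7 WT samples). Labels give the gene, the probe set and its mean signal over the 15 samples, and black squares mark the brightest probe set of each gene. All intervals include 0 except that of the dim Slc1a2 probe set at -0.80.

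Other genes of these pathways did not pass the test either. Among 54 other measured astrocyte genes 0 passed limma at the adjusted threshold and 0 at an unadjusted p under 0.05, and 28 were higher and 26 lower in KO, with a median log2 fold change of 0.00 (0.06 without the library labelled 433). Mt3, a metallothionein, had the smallest p of that list (log2 fold change -0.52), followed by the fatty acid binding protein Fabp7 (0.32, standard error 0.21). Of 33 genes of reactive astrocytes, 0 passed and 1, higher in KO, had an unadjusted p under 0.05, where the share of all genes was 1.53% for higher and 1.52% for lower. This was Ptgs2, the inducible cyclooxygenase, which neurons also make, whose log2 fold change was 0.73 (with a standard error of 0.27, unadjusted p = 0.0147 from limma). S1pr3, a sphingosine-1-phosphate receptor, was next (0.40, standard error 0.22).

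Among 16 genes of the glutamate and glutamine cycle, 11 were higher and 5 lower in KO, with 0 at an unadjusted p under 0.05 by limma. The glutamine transporter Slc38a5 (log2 fold change -0.32, standard error 0.23, and -0.16 without the library labelled 433) and the cystine-glutamate exchanger Slc7a11 (0.21, standard error 0.17) came first. Among 17 genes of aquaporins and the perivascular endfoot 0 were below that p as well, with Dag1, dystroglycan, at 0.24 and the adhesion protein Hepacam at 0.21. The probe sets of Dag1 disagreed, the 3 others running from -0.50 to 0.14. Of 16 connexin and pannexin genes, 5 were higher and 11 lower, and Panx1 was lower at an unadjusted p of 0.0499 from limma (log2 fold change -0.33, standard error 0.16). Gja10, a connexin of the retina, was at -0.28 and dim, with mean levels of 5.99 in WT and 5.71 in KO where the array median was 7.05.

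Of 25 genes of glycolysis, glycogen and lactate, 1 was below an unadjusted p of 0.05, the glycolytic enzyme Pgam1 at a log2 fold change of 0.22 (standard error 0.10, unadjusted p = 0.0429 from limma). Without the library labelled 433 Pgam1 was at 0.19 (unadjusted p = 0.0702 from limma) and 0 of the 25 genes were below 0.05. Ldha, lactate dehydrogenase A, was at 0.23 (standard error 0.12) and at 0.14 without that library. The 13 genes of the S100 family had 0, with S100a4 at 0.32 and S100a6 at -0.27, which was -0.03 without the library labelled 433. So did the 16 genes of folate and one-carbon metabolism, in which the mitochondrial enzymes Mthfd1l (0.28) and Mthfd2 (0.27) came first. None of these lists held a gene past the adjusted threshold, and the genes are named for the smallest p in each list.

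Markers of other cells moved alongside S100b. The mean log2 level over 13 oligodendrocyte markers was 8.31 to 9.34 in WT and 8.81 to 9.73 in KO. Of these markers 11 were higher in KO, 3 of them at an unadjusted p under 0.05 and 0 past the adjusted threshold by limma, with a median log2 fold change of 0.21. The myelin protein Mal had the smallest p (log2 fold change 1.22, standard error 0.32). Over the 15 samples S100b followed this mean with a Pearson r of 0.62, and of 0.80 without the library labelled 433, the highest r of the 9 members. Aqp4, the other member with a positive log2 fold change, had an r of 0.52 with it, and the remaining members lay between -0.14 (Gjb6) and 0.31 (Aldh1l1). With the mean of 8 interneuron markers the r of S100b was 0.79, above that with the oligodendrocyte markers. Without the library labelled 433 it was 0.71, below the 0.80 of the oligodendrocyte markers. S100b also followed the mean of the 13 CA pyramidal neuron markers (r = 0.73, and 0.55 without that library) and ran against that of the granule neuron markers (-0.69 and -0.74). These are descriptions over the same 15 arrays, and the part of these cells in the S100b difference was not tested.

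The brightest probe sets of some members also differed by array series. With genotype in the fit, 4 of the 9 brightest probe sets differed between the smaller and the larger series at an adjusted p under 0.05 from limma, where 10.6% of the brightest probe sets of all genes did. Over all probe sets it was 4 of 29, where the share was 9.82%. This comparison was added after the values were seen. Aqp4 was at 8.32 to 8.996 in the 4 samples of the smaller series and at 8.59 to 10.10 (median 9.52) in the 11 of the larger, a log2 difference of -0.77 (standard error 0.22, adjusted p = 0.0344). Slc1a2 was lower as well, at 9.56 to 10.31 against 10.27 to 11.08 (median 10.61), with a difference of -0.67 (standard error 0.17, adjusted p = 0.0222). These are values of the brightest probe sets, which the dimmer ones did not share. The dimmer Aqp4 probe sets were at -0.17 and 0.25, and those of Slc1a2 ran from -0.18 to 0.15, none past the threshold.

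Aldoc and Aldh1l1 differed the other way. Aldoc was at 11.94 to 12.91 in the smaller series and at 11.47 to 12.06 (median 11.73) in the larger, a difference of 0.69 (standard error 0.15, adjusted p = 0.0102 from limma). Aldh1l1 was at 7.53 to 7.94 against 6.74 to 7.59 (median 7.16), a difference of 0.64 (standard error 0.18, adjusted p = 0.0380 from limma). The dimmer probe sets of Aldoc (0.82) and Aldh1l1 (0.45) were higher in the smaller series too, without passing. Between the series the ranges of all 4 genes overlapped. Slc1a3 (0.42), Gja1 (-0.30), Gjb6 (-0.12), Glul (0.11) and S100b (0.06) did not pass. Without the library labelled 433 the 4 genes still passed, with adjusted p of 0.00993 to 0.0404 from limma.

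The numbers in the labels do not say what the series are. The 3'-to-5' log2 ratio of Gapdh, a sign of RNA quality, was 5.11 to 5.37 in the smaller series and 5.04 to 6.41 in the larger. The mean of the other astrocyte genes was 9.12 to 9.46 and 8.87 to 9.25. The mean over 7 markers of newborn neurons was 8.73 to 9.40 in the smaller series and 7.65 to 8.93 in the larger. Their part in the differences was not tested. With the series as a block in the comparison of KO with WT, the log2 fold changes were 0.36 for Aqp4, -0.36 for Slc1a3, -0.34 for Gjb6 and 0.43 for S100b. Within the larger series they were 0.44, -0.34, -0.32 and 0.63, and within the smaller 0.13, -0.44, -0.40 and -0.14.

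The 9 genes did not vary as a single block over the samples. Of the 36 pairs, 24 had a positive Pearson r over the 15 samples, with a median of 0.13 and a range of -0.70 to 0.79, and 7 had a permutation p under 0.05 before adjustment over the 36. A single pair passed after it, Aqp4 with Gja1 (Pearson r = 0.79, permutation p = 0.00063, adjusted p = 0.0227; Spearman rho = 0.79, permutation p = 0.00079, adjusted p = 0.0284). Both are proteins of the perivascular endfoot membrane. Their r was 0.82 without the library labelled 433 and 0.80 without the 2 samples whose Aqp4 lay farthest from the median. It was 0.82 within the 8 KO samples (exact permutation p = 0.0125), 0.91 within the 7 WT samples (exact permutation p = 0.00595) and 0.68 within the larger series (permutation p = 0.0234), none of which passed the adjustment over 36. The smaller series has too few samples for a value. With the authors' scaling alone it was 0.64 (permutation p = 0.01001, adjusted p = 0.0962), and with all probe sets of each gene averaged 0.36.

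**Figure D3:**
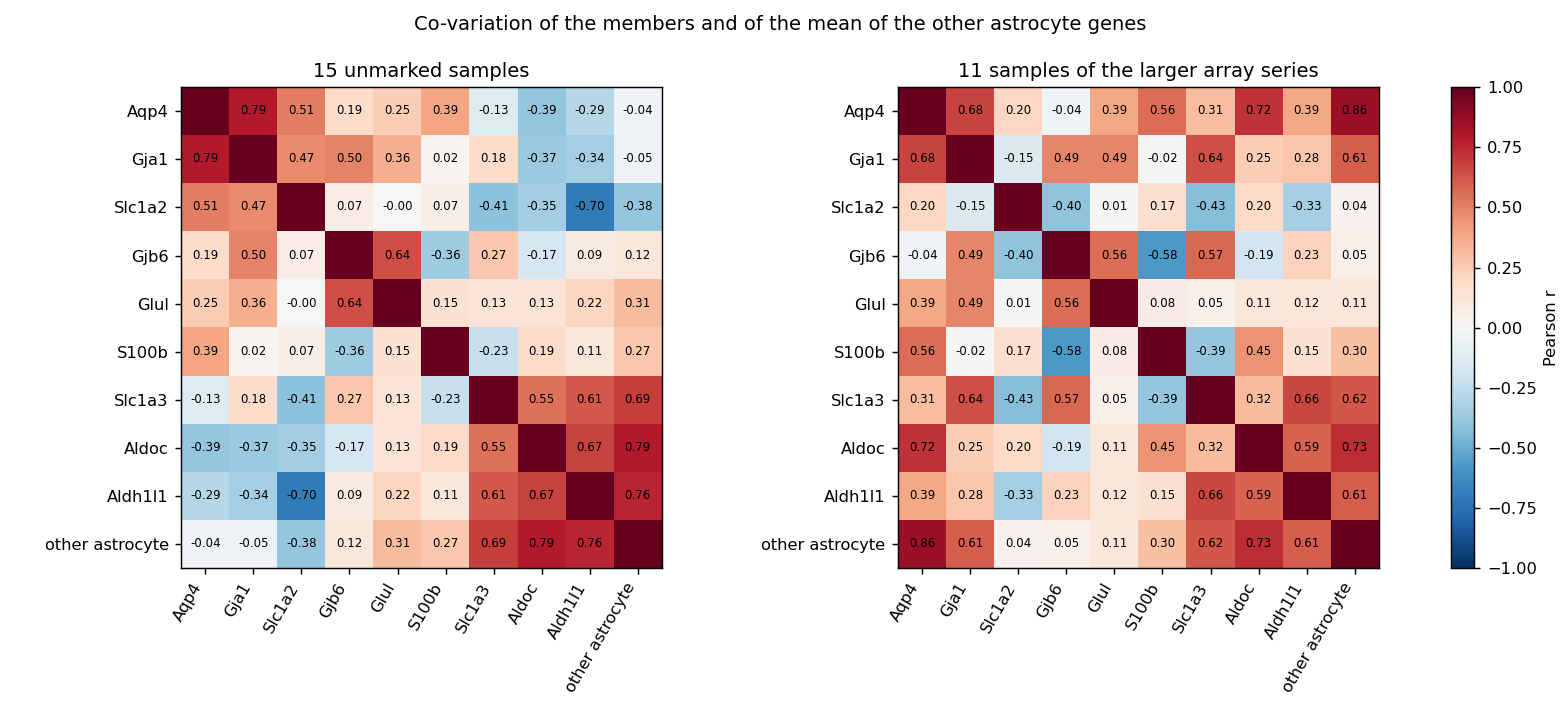
Pearson r between the 9 members and the mean of 54 other astrocyte genes, over the 15 unmarked samples (left) and over the 11 samples of the larger array series (right), on a colour scale from -1 (blue) to 1 (red). Aldoc and Aqp4 had an r of -0.39 on the left and 0.72 on the right, while Aqp4 and Gja1 had 0.79 and 0.68.

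Other pairs came close without passing. Slc1a2 ran against Aldh1l1 (Pearson r = -0.70, permutation p = 0.00315, adjusted p = 0.0567) and Aldoc ran with Aldh1l1 (r = 0.67, permutation p = 0.00511, adjusted p = 0.0613). Within the larger series these were -0.33 and 0.59. Glul and Gjb6 had an r of 0.64 over all 15 samples (permutation p = 0.00879, adjusted p = 0.0791) and of 0.56 within the larger series. The glutamate transporters Slc1a2 and Slc1a3 had an r of -0.41 over the 15 samples and of -0.43 within the larger series.

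The mean level of the 54 other astrocyte genes was set against each member. Over the 15 samples, 3 of the 9 members followed it after adjustment over 9: Aldoc (Pearson r = 0.79, permutation p = 0.00033, adjusted p = 0.00297; Spearman rho = 0.78, permutation p = 0.00116), Aldh1l1 (r = 0.76, permutation p = 0.00101, adjusted p = 0.00454; rho = 0.74, permutation p = 0.00258) and Slc1a3 (r = 0.69, permutation p = 0.00352, adjusted p = 0.0106; rho = 0.73, permutation p = 0.00277). Without the 2 samples farthest from the median of that mean their r was 0.64, 0.70 and 0.63, and the adjusted p of each was 0.0541. Within the larger series r was 0.73 for Aldoc, 0.61 for Aldh1l1 and 0.62 for Slc1a3, with adjusted p of 0.0581, 0.0914 and 0.0914 by permutation. The same 3 members also moved with other measures. Their r with the mean of the 7 newborn neuron markers was 0.79 for Aldoc, 0.76 for Aldh1l1 and 0.75 for Slc1a3, and with the Gapdh ratio -0.60, -0.58 and -0.62, where the other 6 members lay between -0.17 and 0.33. The part of these cells and of RNA quality in the relation was not tested. S100b had an r of 0.27 with the astrocyte mean (permutation p = 0.326) and, without the library labelled 433, of 0.65 (permutation p = 0.0123, adjusted p = 0.0277).

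Aqp4 gave another picture within the larger series than over all samples. Its r with the other astrocyte genes was -0.04 over the 15 samples (permutation p = 0.876) and 0.86 over the 11 of the larger series (permutation p = 0.00081, adjusted p = 0.00729). In the residuals left after genotype and array series it was 0.83 (permutation p = 0.00022, adjusted p = 0.00198). For Gja1 these values were -0.05, 0.61 and 0.67, and for Slc1a2 -0.38, 0.04 and 0.25. All 9 members had a positive r within the larger series and in the residuals, against 6 of 9 over the 15 samples. The residuals were added after the values were seen.

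**Figure D4:**
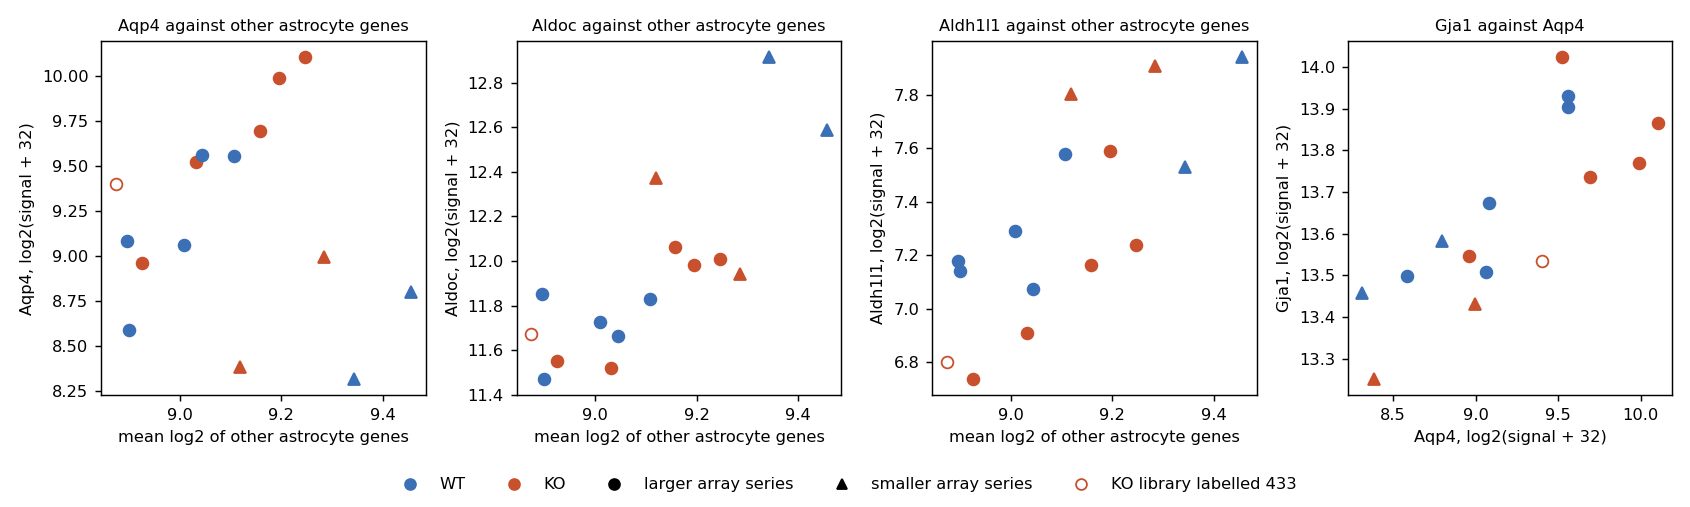
The first 3 panels set the normalized log2(signal + 32) of Aqp4, Aldoc and Aldh1l1 against the mean of 54 other astrocyte genes in the 15 unmarked samples, and the last sets Gja1 against Aqp4. Circles are the larger and triangles the smaller array series, WT in blue, KO in orange, and the library labelled 433 as an open circle. The triangles of Aqp4 lay below the line of circles, and those of Aldoc at or above it.

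Away from the members, the genes that most resembled the mean of the 9 standardized members over the 15 samples were Epas1 (Pearson r = 0.86), Gkap1 (0.86), 2900052N01Rik (0.82), Susd5 (0.81), Hadh (0.81), Cntn6 (0.81), Clic4 (0.80), Mtss1 (0.79), Slco4a1 (0.79) and Ggh (0.77). They were the 10 highest of 11481 genes with a mean signal of at least 100. Epas1 encodes HIF-2 alpha, Hadh an enzyme of fatty acid oxidation, and Ggh one of folate metabolism. None of the 10 was on the list of other astrocyte genes, of which 43 were bright enough to be searched. Of those 43 genes 37 (86.0%) had a positive r, where 53.9% of all 11481 did, and the median was 0.23 against 0.03. The mean of the members had an r of 0.61 with the mean of the other astrocyte genes. With markers of interneurons it was 0.65, of oligodendrocyte precursors 0.65 and of endothelium 0.62. Without the library labelled 433 these were 0.60, 0.85, 0.64 and 0.78. Over the 15 samples the remaining cell types lay between 0.07 (granule neurons) and 0.55 (oligodendrocytes). The part of these cells was not tested.

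The pairs of samples of the marks 433 and 437 gave levels in tissue with granule and with CA profile. Each pair is a single sample against a single sample, without a replicate check. The CA profile belonged to the unmarked sample for 433, but to the CA13-marked sample for 437. For 437 these means were 11.07 (granule markers) and 8.21 (CA markers) in the unmarked sample and 8.19 and 9.90 in the CA13-marked one.

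S100b was high in both CA profiles. In the 437 pair it was at 8.80 in the unmarked and 10.29 in the CA13-marked sample, a difference of -1.50, and in the 433 pair at 10.46 and 9.18, a difference of 1.29. The samples with the CA profile were the 2 highest of all 17. The spread of S100b among unmarked samples was smaller, with standard deviations of 0.29 (WT) and 0.52 (KO). The dim S100b probe set agreed in the 437 pair only, at -0.85, and was at -0.59 in the 433 pair.

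Slc1a3 was lower in the CA profile than in the granule profile of each pair. It was at 10.23 in the unmarked and 9.57 in the CA13-marked sample of 437, a difference of 0.66, and at 8.88 and 9.56 for 433, a difference of -0.68. Counted from the highest of all 17 samples, those with the CA profile ranked 17 (433) and 14 (437). The level did not separate the profiles over all samples. The CA13-marked sample of 433 (9.562) and the KO sample MS15 (9.46), both of granule profile, lay below the CA profile of 437 (9.566). The standard deviations of Slc1a3 among unmarked samples were 0.35 (WT) and 0.51 (KO). The second bright Slc1a3 probe set differed in the same directions, by 0.41 and -1.12. In the 433 pair this probe set was at 9.15 in the unmarked and 10.27 in the CA13-marked sample. Its mean over the 8 unmarked KO samples was 8.86 with the 15 unmarked arrays normalized alone. Gja1 was lower in the CA profile too, with differences of 0.49 for 437 and -0.52 for 433, although 2 of its other bright probe sets went the opposite way in both pairs.

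S100b and Slc1a3 were thus the members whose brightest probe set differed by at least 0.5 in the same direction between CA and granule profile in both pairs, 1 higher and 1 lower. Over all genes 8.62% were higher and 7.33% lower by this rule, so 1 of 9 members in each direction is close to the share of all genes. Glul differed by 0.87 in the 437 pair and by -0.05 in the 433 pair, Gjb6 by 0.57 and -0.17, Aldh1l1 by 0.60 and -0.07, and Aqp4 by 0.15 and -0.68. Aldoc (-0.09 and -0.29) and Slc1a2 (-0.05 and -0.12) differed least. The mean of the other astrocyte genes was 9.05 in the unmarked and 8.90 in the CA13-marked sample of 437 and 8.88 and 9.07 in those of 433. It was lower in the CA profile of each pair, by about the size of its spread. Its standard deviation among unmarked samples was 0.22 in WT and 0.15 in KO.

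**Figure D5:**
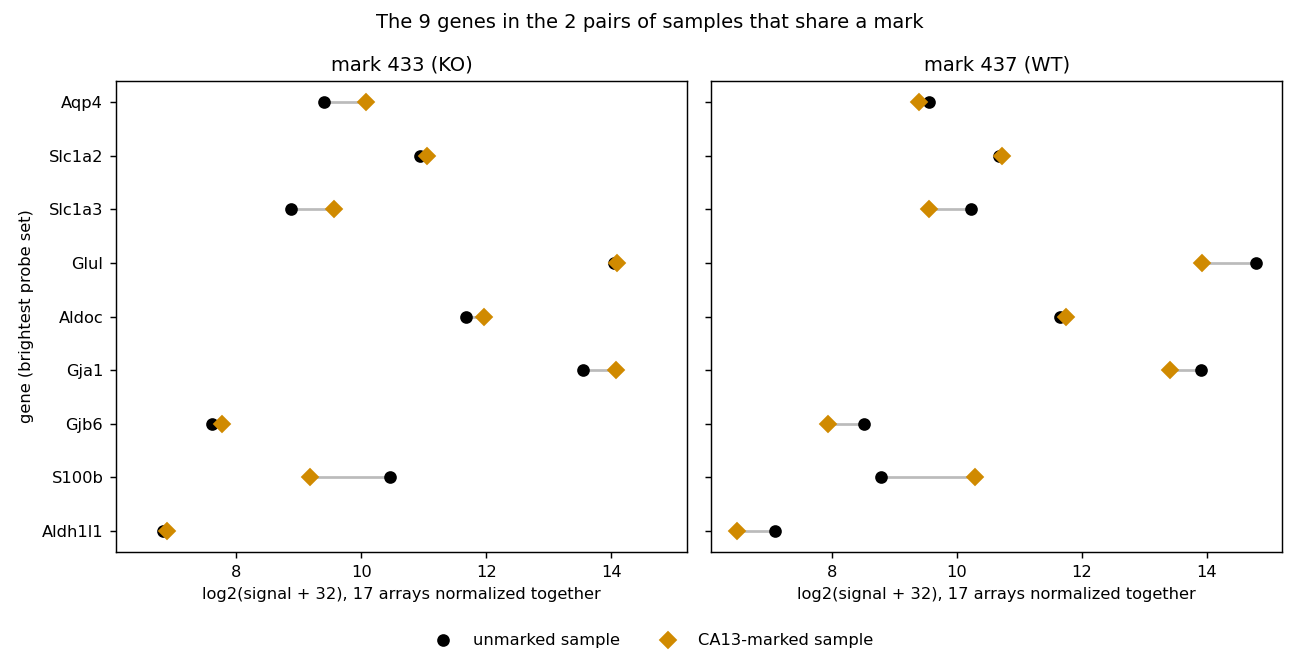
Levels of the 9 genes, log2(signal + 32) after normalization of all 17 arrays together, in the unmarked (black circles) and CA13-marked (yellow diamonds) sample of the marks 433 (KO, left) and 437 (WT, right), 1 sample per point. The CA profile of neuronal markers is in the black circle on the left and in the yellow diamond on the right, and S100b is higher in both.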

How the data were processed

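RNA from dentate gyrus taken by laser capture was measured on 1-colour Affymetrix arrays. The values the authors deposited are linear intensities, 1 for each probe set of an array. MAS5 stands in the submitters' processing notes, RMA and SAM in the methods, and in the table every array had the same 2% trimmed mean of 500. No source used here gives a genome build for the probe sets.

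Symbols came from the platform annotation, and of 34958 probe sets with 1 symbol 34754 were found in a GRCm38.p6 gene table. Without the 64 controls, 32 was added before log2, the 15 unmarked arrays were quantile normalized, and limma 3.58.1 (R 4.3.3) was fitted to 45037 probe sets with genotype as the term, eBayes with an intensity trend and Benjamini-Hochberg adjustment. Probe sets were called at an adjusted p under 0.05. For each gene, the probe set with the highest mean level was used and the others are given where they disagree. Pairs of samples were read from all 17 arrays normalized together.

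Correlations were tested by 100000 permutations (all permutations for 8 or fewer samples), two-sided, and single probe sets by exact permutation. The steps were tested on simulated data. Named genes are the members, Foxo1, up to 2 genes per list with the smallest p and the 10 genes most like the members. Panels of markers and members alike were chosen with earlier results of these data known. Alternatives covered scaling, a smaller and a larger pseudocount, a filter on mean signal (100), sample choice, array series, the Gapdh ratio, trend, array weights, SAM, the methods' t-test and leaving out each sample.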

Additional observations from a re-analysis of the deposited data

Results flagged for a closer look

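S100b and Slc1a3 differed between the unmarked and the CA13-marked sample in opposite directions in the KO pair and the WT pair. For S100b the difference, unmarked minus CA13-marked, was 1.29 on the log2 scale in the KO pair of mark 433 and -1.50 in the WT pair of mark 437. For Slc1a3 it was -0.68 and 0.66. With 1 sample on each side the difference between the pairs was not tested. In the KO pair the neuronal markers go against the labels, with the CA profile in the unmarked sample. No member had a sample standing apart from its group by Dixon's test in 18 groups tested, of which chance flags about 1 in 20.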

How the results depend on the processing

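Aqp4, Slc1a3, Glul and Gjb6 kept their direction between KO and WT under every alternative run, and no member passed the adjusted threshold under any limma setting (smallest adjusted p 0.9926). The other members turned in some settings, each time by less than the standard error where one was fitted. In the other direction, the lowest log2 fold changes over all alternatives were -0.63 for Slc1a2 and -0.59 for Aldoc. In the 2 KO and 2 WT samples of the smaller series, Slc1a2 was at 9.56 and 9.75 in KO against 10.29 and 10.31 in WT. Aldoc was at 11.94 and 12.37 in KO against 12.59 and 12.91 in WT. Within the larger series the log2 fold change was 0.147 for Slc1a2, 0.092 for Aldoc and 0.0423 for Gja1, and within the smaller series -0.144 for S100b and 0.122 for Aldh1l1. With array weights it was 0.0282 for Aldoc and 0.005 for Gja1, and with all probe sets averaged 0.0112 and 0.0281. Gja1 was at 0.0604 once the unmarked library labelled 433 was replaced by its CA13-marked partner, and at 0.0103 without that library, with or without the series as a block. With each sample left out in turn, log2 fold changes ran from -0.13 to 0.0846 for Slc1a2, -0.21 to 0.0344 for Aldoc and -0.0593 to 0.05 for Gja1, and the count of member probe sets called was 0 each time.

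The count over all probe sets, 6, was 3 within the larger series, 0 within the smaller and 1509 by the methods' t-test without adjustment, which called 2 member probe sets. With samples left out it ran from 3 (without the WT sample of 437) to 8. The count of member pairs past adjustment, 1, was 2 at the larger pseudocount, and 0 within KO, within WT, within the larger series, with the authors' scaling alone, with all probe sets averaged and in the residuals. The count of members that followed the other astrocyte genes, 3, was 4 without the library labelled 433, 1 within the larger series and with all probe sets averaged, and 0 within KO, within WT and without the 2 farthest samples.

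Against that mean, the r of Aqp4 turned from -0.0438 to 0.414 without the 2 farthest samples, 0.251 within KO, 0.857 within the larger series, 0.177 with all probe sets averaged and 0.834 in the residuals. Gja1 turned from -0.0486 to 0.142, 0.0718, 0.607 and 0.675 under the same settings other than averaging, and Slc1a2 from -0.383 to 0.041 within the larger series and 0.254 in the residuals. Gjb6 turned from 0.116 to -0.0052 without the library labelled 433, -0.0946 without the 2 farthest samples and -0.0084 within WT. The cause was not tested. The block without that library and the residuals were chosen after seeing the data. Few arrays, and signals under 100 in 11 of the 29 probe sets, limit the precision. No paired analysis was possible because KO and WT samples share no marks.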
